A study of Homo sapiens with 12 samples.

Results

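The zinc finger genes on chromosome 19 were taken as the rows of both deposited tables that lie on this chromosome and whose symbol, or any part of a joined symbol, is ZNF followed by a number and at most 1 capital letter. The rule found 253 of the 48114 listed genes. A further 271 genes with such a symbol lie on other chromosomes, and 2210 listed genes of chromosome 19 have other symbols. The 12 libraries hold polyA RNA of 2 established pancreatic ductal adenocarcinoma (PDAC) cell lines. PANC-1 cells, which the study uses as basal-like, received a control siRNA (siCtrl), siRNAs against the splicing factor QKI (siQKI) or siRNAs against the splicing factor RBFOX2 (siRBFOX2), at 40 nM for the knockdowns, and were collected after 48 h. HPAF-II cells, used as classical, received siCtrl only. Each of the 4 groups holds 3 libraries, so every cell, the controls included, carried a transfected siRNA, and each condition rests on 1 cell line. The labels do not say whether the 3 libraries of a group came from separate cultures, so a p-value here measures the spread between these libraries, which may be technical.

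C2H2 zinc finger proteins read DNA through tandem fingers, each held together by a zinc ion between a pair of cysteines and a pair of histidines. Many of those encoded on human chromosome 19 also carry a KRAB domain, which recruits the corepressor TRIM28 (KAP1) and, through it, the H3K9 methyltransferase SETDB1 and HP1 proteins. The genes arose by repeated tandem duplication, sit in clusters, and include repressors of transposable elements such as ZNF91 and ZNF93. The bodies and last exons of these genes are themselves known to carry H3K9me3, which ZNF274 helps to place.

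A KRAB A-box pattern was searched in every coding transcript of each gene in GENCODE, translated in each reading frame. By any such match, 204 of the 244 protein-coding members had the pattern and 40 did not, so a match may lie outside the coding frame. The number of C2H2 fingers, counted in the longest coding transcript, ranged from 0 to 39, with a median of 13. GENCODE classes 7 members as transcribed pseudogenes, among them ZNF826P and ZNF321P, and gives no gene by that symbol for 2 members. A gap of over 1 Mb between neighbouring members was used to part them into 16 clusters, of which 9 have at least 5 members and together hold 242 of the 253. On hg38, the build named in the labels, these clusters run from ZNF554 to ZNF77 (5 members, chr19:2819868-2944971), from ZNF557 to ZNF846 (16 members, chr19:7069444-9786160), from ZNF653 to ZNF791 (26 members, chr19:11483429-12633819) and from ZNF101 to ZNF254 (38 members, chr19:19668153-24129968). The following ones run from ZNF807P to ZNF792 (6 members, chr19:34541692-34964229), from ZNF565 to ZNF573 (26 members, chr19:36177618-37817300) and from ZNF575 to ZNF296 (24 members, chr19:43525497-45076587). The last clusters are those from ZNF175 to ZNF331 (42 members, chr19:51571283-53580269) and from ZNF628 to ZNF446 (59 members, chr19:55476332-58489532). Below, a cluster is called by its first and last member.

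Facts of the libraries that bear on all values are short. The unit throughout is the deposited normalized count, which is a count per gene over the size factor of its library. QKI was lower in siQKI than in siCtrl by a log2 fold change of -2.34 ± 0.06 (SE, adjusted p = 9.15e-13) and RBFOX2 lower in siRBFOX2 by -2.89 ± 0.09 (adjusted p = 4.7e-11), both from limma over all genes tested. Of the epithelial markers, the keratins KRT8, KRT18 and KRT19 were high in both lines, while EPCAM stood at 13.8 rescaled units in PANC-1 and 423 in HPAF-II and CDH1 at 2.87 and 196. CDH1 was higher in siQKI than in siCtrl by 1.39 ± 0.11 (SE, limma adjusted p = 1.54e-07). PTPRC, PECAM1, CDH5, INS and GCG had group means of at most 9.64. Of the acinar markers, CPA1 had 17.1 ± 29.6 in PANC-1 siCtrl and PRSS1 45.8 ± 79.4 in HPAF-II (mean and SD, n = 3). The fibroblast markers COL1A2 and DCN had means of 0 in PANC-1 siCtrl, and 323 ± 560 and 110 ± 146 in HPAF-II. In all of these the SD exceeds the mean, so the libraries disagree. COL1A2 and PRSS1 overlapped between the lines and DCN did not. COL1A1 was present in all groups and was higher in siQKI by 0.99 ± 0.11 (SE, limma adjusted p = 5.29e-06). The part of these markers in the results was not tested. Across members with a mean of at least 10, replicate libraries correlated with r of 0.957 to 0.991 in the PANC-1 groups and of 0.882 to 0.938 in HPAF-II, on log2 values, so HPAF-II values of single members are the less precise ones. In these bulk libraries, fewer cells that express a gene and less RNA per cell cannot be told apart.

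To show the edges at which neighbouring members part between the lines, the promoters of a pair of neighbours are printed for each of 2 clusters. The pairs were chosen after their values were seen, as those with the largest difference in line ratio between neighbours of which 1 lies within 2-fold in both lines. Each sequence is 300 bases long, from 250 before to 50 after the RefSeq transcript start, on the gene's strand (GRCh38.p14), and capitals mark CG dinucleotides. ZNF527 (chr19:37370849-37371148, plus strand, 27 CG) and ZNF569 (chr19:37467395-37467694, minus strand, 17 CG) belong to the ZNF565 to ZNF573 cluster. ZNF329 (chr19:58150740-58151039, minus strand, 28 CG) and ZNF274 (chr19:58182811-58183110, plus strand, 16 CG) belong to the ZNF628 to ZNF446 cluster.
ZNF527: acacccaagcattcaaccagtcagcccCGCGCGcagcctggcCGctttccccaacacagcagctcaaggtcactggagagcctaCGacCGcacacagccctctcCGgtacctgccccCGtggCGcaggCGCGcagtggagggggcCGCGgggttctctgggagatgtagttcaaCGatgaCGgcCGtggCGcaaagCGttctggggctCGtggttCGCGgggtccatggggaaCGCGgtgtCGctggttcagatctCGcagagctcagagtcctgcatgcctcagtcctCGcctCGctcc
ZNF569: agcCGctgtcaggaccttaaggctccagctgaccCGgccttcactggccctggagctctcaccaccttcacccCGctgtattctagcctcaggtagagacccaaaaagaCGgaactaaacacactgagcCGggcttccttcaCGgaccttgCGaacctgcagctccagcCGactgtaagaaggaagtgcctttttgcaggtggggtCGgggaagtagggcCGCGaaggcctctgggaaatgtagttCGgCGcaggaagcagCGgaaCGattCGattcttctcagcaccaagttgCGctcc
ZNF329: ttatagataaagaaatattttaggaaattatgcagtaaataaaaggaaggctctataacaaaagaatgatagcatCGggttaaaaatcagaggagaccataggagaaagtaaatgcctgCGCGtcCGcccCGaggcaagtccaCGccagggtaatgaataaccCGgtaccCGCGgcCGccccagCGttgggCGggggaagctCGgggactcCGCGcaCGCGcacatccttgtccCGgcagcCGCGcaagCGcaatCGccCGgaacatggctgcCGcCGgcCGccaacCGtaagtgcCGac
ZNF274: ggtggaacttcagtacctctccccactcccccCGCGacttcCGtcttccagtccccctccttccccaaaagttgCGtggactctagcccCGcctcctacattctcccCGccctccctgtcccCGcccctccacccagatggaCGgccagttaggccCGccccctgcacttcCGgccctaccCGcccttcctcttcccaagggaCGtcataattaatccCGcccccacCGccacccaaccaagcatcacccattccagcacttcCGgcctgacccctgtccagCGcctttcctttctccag
ZNF527 and ZNF274 were present in both lines, whereas ZNF569 and ZNF329 were listed at 0 in every HPAF-II library. Within the first pair the promoter of the absent gene has the fewer CG, and within the second pair it has the more.

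The levels of these genes were described first in the siCtrl libraries of both lines. Of the 253 members, 21 had a mean under 10 in PANC-1 siCtrl and 85 had one in HPAF-II. In PANC-1 siCtrl 10 members were listed at 0 in all 3 libraries, and in HPAF-II 54 were. ACTB, GAPDH, RPLP0 and EEF1A1, which every cell uses, had group means of at least 476749 in all 4 groups. Per kilobase of GENCODE exon, the median member stood at 397 normalized counts in PANC-1 siCtrl (251 members) and at 87.9 in HPAF-II. ZNF146, a protein made almost only of zinc fingers, was the highest on this scale in both lines, with 25589 per kb in PANC-1 and 13170 per kb in HPAF-II (named after its values were seen). In PANC-1 siCtrl the next highest was ZNF581 with 5901 per kb and ZNF787 with 5894 per kb, and in HPAF-II it was ZNF317 with 3232 per kb. All members together took 0.274% ± 0.00361 (SD, n = 3) of the total of a library in PANC-1 siCtrl and 0.163% ± 0.0124 (n = 3) in HPAF-II. The share in siQKI was 0.296% ± 0.00709 (n = 3) and that in siRBFOX2 was 0.299% ± 0.0111 (n = 3).

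Most members were lower in HPAF-II than in PANC-1, and the members absent from HPAF-II stood in blocks along the chromosome. Since each line has its own normalized table, the lines are described without a test. Values were rescaled per library so that all genes sum to 1000000, and the difference of the mean log2(rescaled value + 0.01) is given as a description. Of the 232 members with a mean of at least 10 deposited units in either line, 124 (53.4%) were at least 2-fold lower in HPAF-II, where 27.1% of all 24673 genes compared were. Only 10 members (4.31%) were at least 2-fold higher in HPAF-II, against 26.1% of all genes. The median log2 difference of the members was -1.40, that of all genes 0.02 and that of the 244 ZNF genes compared on other chromosomes 0.22. Of the latter, 50 were at least 2-fold lower and 46 at least 2-fold higher. Of 1322 other genes of chromosome 19, 557 were lower and 236 higher, with a median of -0.55. The libraries of the 2 lines did not overlap for 192 of the 232 members (82.8%), a state that 63.7% of all genes compared showed.

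**Figure D1:**
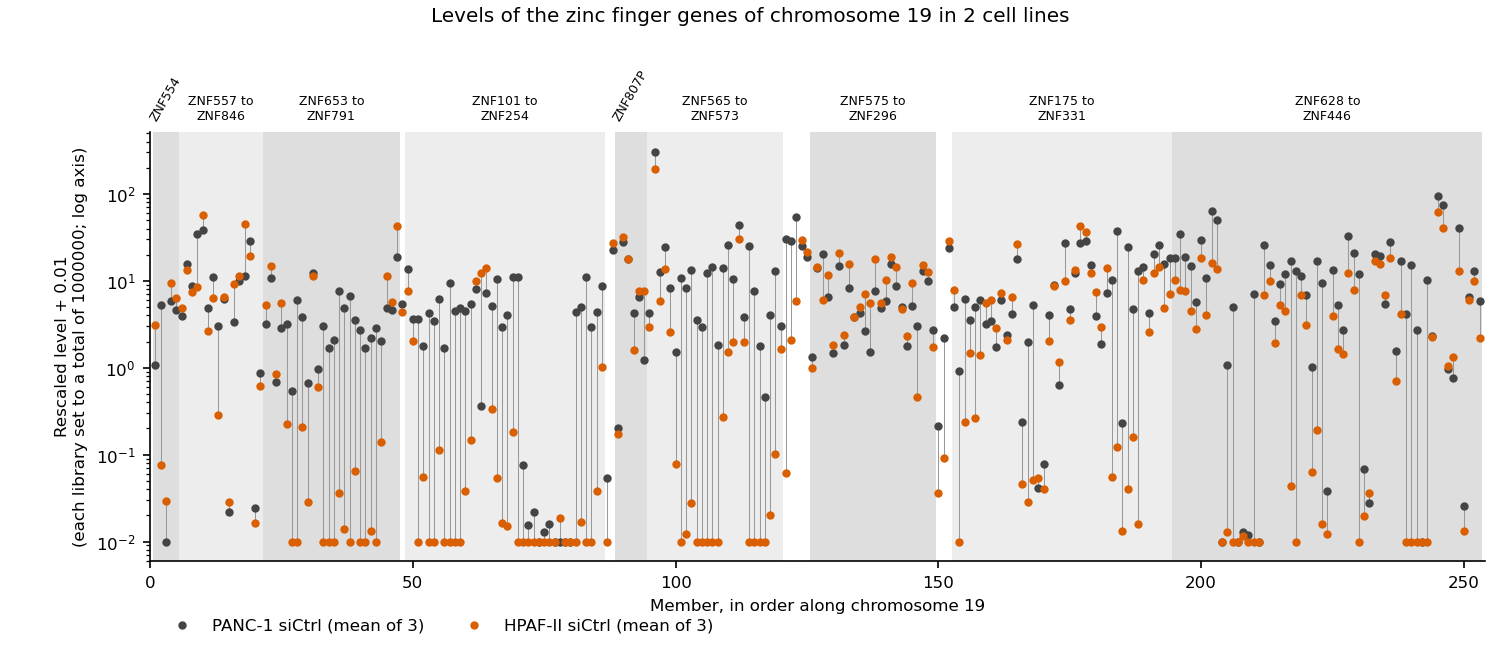
Mean rescaled level (log axis, with 0.01 added) of each of the 253 members in PANC-1 siCtrl and HPAF-II siCtrl (n = 3 each), in chromosome order, with the clusters of at least 5 members shaded and a line joining both values of a member. Points on the floor are members listed at 0; HPAF-II points on the floor stand in runs in the ZNF653, ZNF101, ZNF565 and ZNF628 clusters, and no member of the ZNF575 to ZNF296 cluster is there.

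A stricter description counts members with a mean of at least 50 in PANC-1 siCtrl and under 10 in HPAF-II, called low in HPAF-II below. There were 60 such members among the 227 with at least 50 in PANC-1 (26.4%), where 7.74% of all genes with at least 50 in PANC-1 met the same rule. Of the 60, 39 were listed at 0 in all 3 HPAF-II libraries. Among ZNF genes on other chromosomes 14 of 233 were low in HPAF-II (6.01%), and among other genes of chromosome 19 it was 123 of 1015 (12.1%). In the opposite direction, none of the 149 members with a mean of at least 50 in HPAF-II had a mean under 10 in PANC-1 siCtrl, while 5.15% of all genes with at least 50 in HPAF-II did. Without 1 HPAF-II library at a time the count of 60 became 55 to 63. Among the 125 members that overlap no other listed gene it was 25. The counting is not stated to use strand, so for a member that overlaps another gene the reads of both cannot be told apart.

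The low members were unevenly spread over the clusters. The ZNF653 to ZNF791 cluster held 13 of 26 members with at least 50 in PANC-1, the ZNF101 to ZNF254 cluster 16 of 28 and the ZNF565 to ZNF573 cluster 13 of 26. The ZNF175 to ZNF331 cluster held 6 of 40 and the ZNF628 to ZNF446 cluster 11 of 49. The other clusters of at least 5 members held 0 of 48, among them the 24 members from ZNF575 to ZNF296. A further low member, ZNF541, stands in a cluster of 2. Of the 60 low members, 53 stood in 14 runs of at least 2 neighbours, counted among members with at least 50 in PANC-1, and 7 had no low neighbour. The line differences of neighbouring members within a cluster correlated with a Pearson r of 0.665 and a Spearman rho of 0.665 over 216 neighbour pairs. These pairs share their libraries, and each member stands in up to 2 pairs. For the knockdown changes described further on, the same measure was 0.107 (rho 0.0873) in siQKI and 0.231 (rho 0.228) in siRBFOX2.

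The longest run lay in the ZNF565 to ZNF573 cluster and held 8 members over 494 kb (chr19:36636618-37130368), namely ZNF461, ZNF567, ZNF850, ZNF790, ZNF345, ZNF829, ZNF568 and ZNF420. ZNF568, a KRAB protein whose mouse counterpart silences a placental Igf2 promoter, had 5081, 4929 and 4852 normalized counts in the PANC-1 siCtrl libraries and was listed at 0 in all 3 HPAF-II libraries. ZNF829 had 4226, 4315 and 4279 in PANC-1 siCtrl and was likewise listed at 0 in HPAF-II. ZNF850 had 4585, 4366 and 4734 in PANC-1 siCtrl and 14.8, 0 and 0 in HPAF-II. All of these lie at or near 0 in HPAF-II, and levels beyond the run were higher. ZNF585A, the member after the run, had 181, 18.3 and 20.2 in HPAF-II, and ZNF585B had 273, 646 and 381. ZNF875 had 9939, 9492 and 6503 in HPAF-II against 15416, 14649 and 14785 in PANC-1 siCtrl. A second run of 5 members in the same cluster spans 203 kb from ZNF569 to ZNF571 (chr19:37411142-37614179). ZNF607, the member after this second run, had 28.4, 0 and 48.6 in HPAF-II against a mean of 4501 in PANC-1 siCtrl. ZNF569, which had the lowest log2 difference between the lines of all 232 members compared, had 8373, 8372 and 9357 in PANC-1 siCtrl and 0 in each HPAF-II library. ZNF527, 18.1 kb before it, had 521, 722 and 455 in HPAF-II, and its PANC-1 siCtrl mean was 1333 ± 130 (SD, n = 3).

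**Figure D2:**
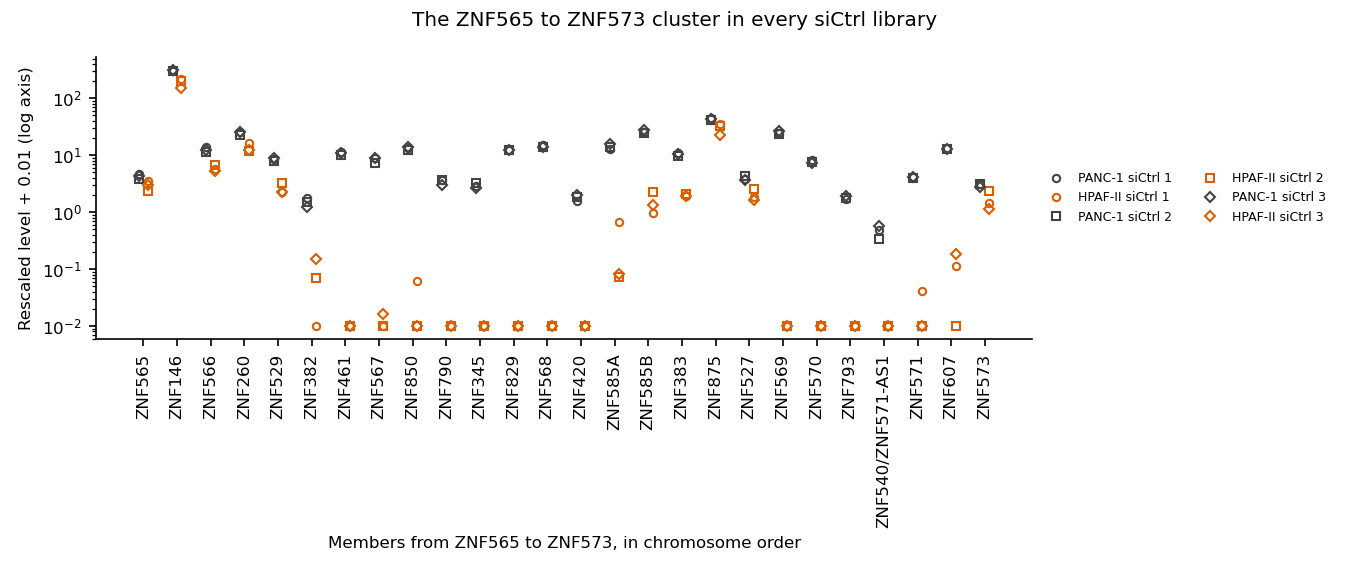
Rescaled level (log axis, with 0.01 added) of the 26 members from ZNF565 to ZNF573 in each of the 3 PANC-1 siCtrl and 3 HPAF-II siCtrl libraries, in chromosome order. All PANC-1 points lie above the floor, and the HPAF-II points of ZNF461 to ZNF420 and of ZNF569 to ZNF571 lie on or near it. ZNF382 before the first run and ZNF607 after the second were low in HPAF-II as well. ZNF875 and ZNF527, between the runs, were closer to PANC-1.

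In the ZNF653 to ZNF791 cluster the runs of over 2 members were ZNF433 to ZNF136 (6 members, 235 kb, chr19:12014715-12249505) and ZNF563 to ZNF443 (4 members, 124 kb, chr19:12317492-12441021). ZNF44, between them and with a mean above 10, had 18.5, 13.7 and 14.7 in HPAF-II against a mean of 1228 in PANC-1 siCtrl. At the far end of this cluster ZNF791 had 14979, 13999 and 7765 in HPAF-II, with a PANC-1 siCtrl mean of 6483. In the ZNF101 to ZNF254 cluster, the runs were ZNF93 and ZNF682, then ZNF486 to ZNF66 (5 members, 646 kb, chr19:20167207-20813049), ZNF493 and ZNF429, and ZNF43 to ZNF726 (6 members, 2140 kb, chr19:21804946-23944714). The last of these includes ZNF91, with 1703 ± 232 in PANC-1 siCtrl (SD, n = 3) and 0, 5.73 and 0 in HPAF-II. ZNF91 is known as a repressor of SVA elements. ZNF93, a repressor of LINE-1 elements, had 1598, 1480 and 1317 in PANC-1 siCtrl and was listed at 0 in all HPAF-II libraries. ZNF43 had 4152, 3573 and 3659 in PANC-1 siCtrl and was listed at 0 as well. In this cluster the neighbours ZNF430, ZNF714 and ZNF431 were present in HPAF-II, and ZNF430 had 2718, 2751 and 2921 there.

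In the ZNF628 to ZNF446 cluster the low runs were ZNF582 to ZNF71 (3 members, 244 kb, chr19:56382751-56626468), the joined entry TRAPPC2B // ZNF547 with ZNF548, and ZNF418 to ZNF329 (4 members, 233 kb, chr19:57921882-58155110). ZNF256 had 4731, 5567 and 5567 in PANC-1 siCtrl, ZNF548 had 4304, 4220 and 4692, and ZNF551 had 4108, 3811 and 4430, and all were listed at 0 in every HPAF-II library. ZNF274, which lies 27.9 kb beyond ZNF329, had 603, 750 and 583 in HPAF-II and 786 ± 59.0 in PANC-1 siCtrl (SD, n = 3). Rescaled, that was 2.27 ± 0.299 in HPAF-II and 2.28 ± 0.141 in PANC-1. In the ZNF175 to ZNF331 cluster ZNF160, whose HPAF-II mean was above 10 because of 1 library, had 12590, 13278 and 12535 in PANC-1 siCtrl and 93.8, 0 and 0 in HPAF-II. Outside the larger clusters ZNF546 had a mean of 10459 in PANC-1 siCtrl and 11.1, 25.2 and 8.26 in HPAF-II.

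The ZNF575 to ZNF296 cluster showed the other picture. Its 24 members were all present in both lines, with 3 at least 2-fold higher in HPAF-II, 2 at least 2-fold lower and a median log2 difference of 0.29. The members higher in HPAF-II lie side by side. ZNF223 had 7.06 ± 0.796 rescaled units in HPAF-II and 2.63 ± 0.225 in PANC-1 (SD, n = 3), ZNF284 had 5.59 ± 0.749 and 1.49 ± 0.140, and ZNF224 had 18.0 ± 3.73 and 7.60 ± 0.0987. ZNF223 and ZNF284 share 60.2% and 41.9% of their 150-base transcript words with other genes, so their counts are uncertain. ZNF714 in the ZNF101 to ZNF254 cluster was the member with the largest rise in HPAF-II. It had 3572, 4382 and 2538 normalized counts there and 133, 101 and 126 in PANC-1 siCtrl, which is 33.8-fold higher after rescaling. ZNF792 was 6.14-fold higher (2096, 2551 and 1893 against 417, 425 and 431), ZNF561 was 3.92-fold higher and ZNF554 2.90-fold higher. ZNF426 was 2.68-fold and ZNF564 2.35-fold higher, the latter with 80.6% of its words shared with other genes. All of these members but ZNF224 were named by a rule that took only members whose libraries do not overlap between the lines. Those of ZNF224 did not overlap either.

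Genes that are no members but lie inside the clusters were often low as well. In all clusters of at least 5 members, 45 of 157 such genes with at least 50 in PANC-1 were low in HPAF-II (28.7%). Elsewhere on chromosome 19 it was 78 of 858 (9.09%). In those of these clusters that hold low members, 38 of 87 such genes (43.7%) and 59 of 169 members (34.9%) were low. In the others it was 7 of 70 such genes. This last split was made by the members' own low values, so it holds no separate comparison for the members. Within the ZNF565 to ZNF573 cluster these genes included ZFP82 and ZFP30, which also encode C2H2 zinc finger proteins, the long non-coding RNA genes LINC00665, ZNF790-AS1, ZNF793-AS1 and ZNF567-DT, and LOC728485. Antisense and divergent transcripts that overlap a member cannot be told apart from it.

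**Figure D3:**
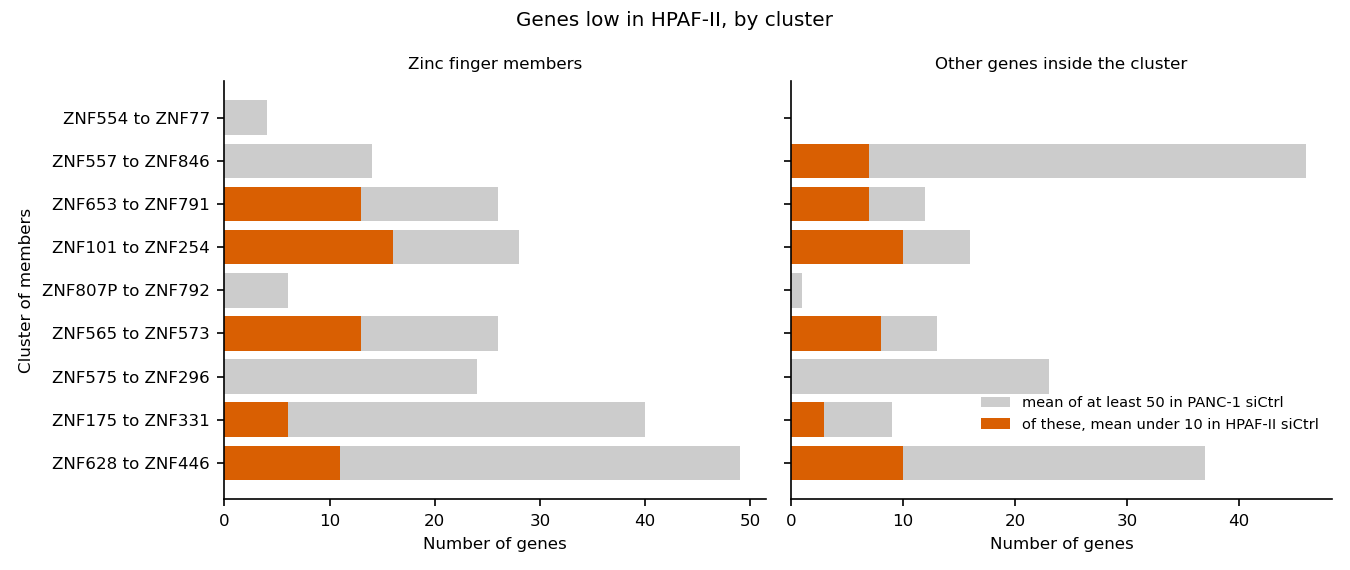
Number of genes with a mean of at least 50 in PANC-1 siCtrl (grey) and, of these, with a mean under 10 in HPAF-II siCtrl (orange), for the members (left) and the other genes inside each cluster of at least 5 members (right). Orange bars of members appear in 5 of the 9 clusters and reach 16 of 28 in the ZNF101 to ZNF254 cluster.

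The low members were also described by features that the rule on symbols did not use. Of the members with a KRAB A-box pattern, 54 of 184 were low in HPAF-II (29.3%), and of the coding members without it 5 of 36 were (13.9%). Members with no 150-base word shared with another gene were low in 46 of 166 cases (27.7%) and members with over 10% of such words shared in 6 of 27 (22.2%). RefSeq promoters were matched for 215 members. The 56 low members with a promoter had a median of 17 CG dinucleotides in 300 bases (quartiles 11.75 and 25), and the 141 members present in both lines had a median of 21 (quartiles 17 and 26). The median of all 35116 RefSeq promoters was 14 (quartiles 4 and 28). No test was run on these differences.

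Of the 22 genes of the KRAB repressor machinery, 4 were at least 2-fold higher in HPAF-II and 1 at least 2-fold lower, with a median log2 difference of 0.40. Of all genes compared, 26.1% were at least 2-fold higher and 27.1% lower. With the pseudocount used, neither count of this list exceeds these shares. The background depends on that pseudocount, since the share of all genes lower was 18.4% with 0.1 and 11.2% with 1. The counts of this list and the share of all genes higher were not compared at these settings. The lower one was TRIM28, the corepressor that KRAB domains bind, with 96.5 rescaled units in HPAF-II and 263 in PANC-1. ATF7IP, the cofactor that stabilises SETDB1, was higher in HPAF-II by 2.17 on the log2 scale, the remodeller CHD4 by 1.57, MPHOSPH8, a reader of H3K9me3, by 1.16 and SETDB1 itself by 1.04. The libraries of the lines did not overlap for any of these 5 genes, which were picked by the size of their difference. Of all genes compared, 63.7% did not overlap.

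Within PANC-1 cells, the members past the threshold in either knockdown were mostly higher than in siCtrl and had a median absolute log2 fold change of 0.32. In siQKI, 68 of the 232 members tested passed the threshold (29.3%; limma, Benjamini-Hochberg adjusted p under 0.05 over 22544 genes), a share below the 33.0% of all genes tested. Of these, 52 were higher (22.4% of the members tested, against 14.9% of all genes) and 16 lower (6.90%, against 18.1%). The median log2 fold change was 0.121 over the members and 0.025 over all genes. The calls shrank to 44 (37 higher, 7 lower) without siQKI replicate 3, where 27.6% of all genes passed. Without the mean-variance trend they were 44 (36 higher, 8 lower), where 26.4% of all genes passed. With upper-quartile scaling they were 71 higher and 4 lower, where 32.3% of all genes passed. That scaling moved the median log2 fold change from 0.025 to 0.087 over all genes and from 0.121 to 0.182 over the members. ZNF genes on other chromosomes gave 64 higher and 32 lower of 243, and other genes of chromosome 19 gave 213 higher and 225 lower of 1248. Called changes of at least 1.5-fold were found in 9 of the 232 members, all of them higher. Of all 22544 genes tested, 2035 had one (9.03%, with 5.87% higher and 3.16% lower).

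In siRBFOX2, 70 of the 232 members passed the threshold (30.2%), and 26.5% of all genes did. There 56 were higher (24.1%, against 12.0% of all genes) and 14 lower (6.03%, against 14.5%), with a median log2 fold change of 0.113 over the members and 0.011 over all genes. Without the mean-variance trend 46 members passed (37 higher, 9 lower), where 18.9% of all genes did. ZNF genes on other chromosomes gave 63 higher and 21 lower of 243, and other genes of chromosome 19 gave 134 higher and 191 lower of 1248. Called changes of at least 1.5-fold were found in 6 of the 232 members, 5 higher and 1 lower. Of all 22544 genes tested, 1288 had one (5.71%, with 4.09% higher and 1.62% lower). The 3 siCtrl libraries serve as the control of both knockdowns, which makes the changes of siQKI and siRBFOX2 dependent on each other.

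**Figure D4:**
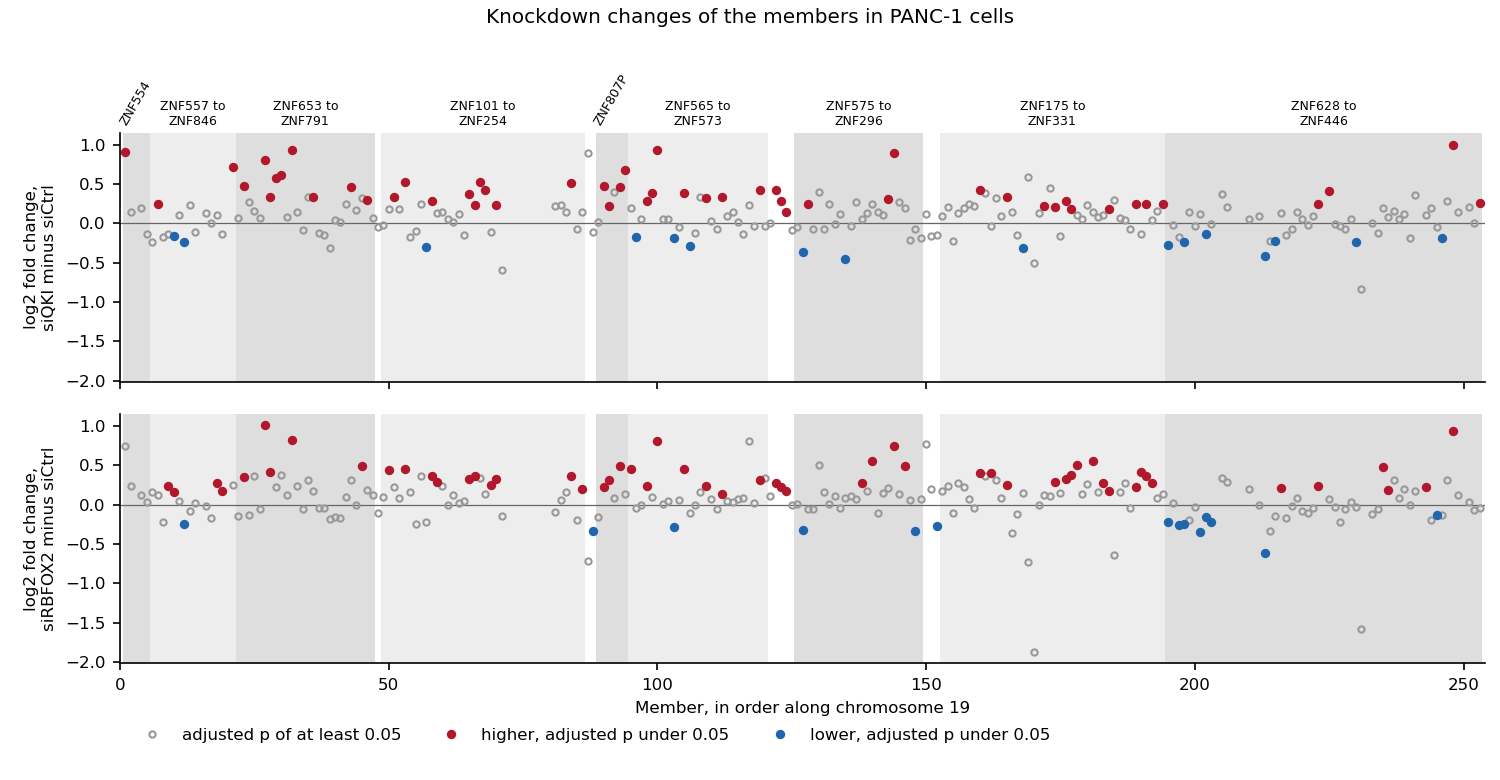
Log2 fold change of the 232 tested members in siQKI (top) and siRBFOX2 (bottom) against siCtrl in PANC-1 cells, in chromosome order, with members past the threshold filled in red (higher) or blue (lower). Red points prevail in most shaded clusters, and the blue points gather in the ZNF628 to ZNF446 cluster, with 7 of 16 falls in siQKI and 8 of 14 in siRBFOX2.

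The largest rises in siQKI were found in ZNF837 and ZNF763. ZNF837 had 340, 239 and 187 normalized counts in siCtrl, 448, 511 and 522 in siQKI and 555, 428 and 454 in siRBFOX2. The rule for the largest changes took only members whose knockdown libraries all lie on one side of the siCtrl libraries. The log2 fold changes of ZNF837 were 0.99 ± 0.22 (SE, limma adjusted p = 0.00229) in siQKI and 0.94 ± 0.22 (adjusted p = 0.00457) in siRBFOX2. ZNF763 had 349, 244 and 396 in siCtrl, 658, 644 and 557 in siQKI and 668, 443 and 633 in siRBFOX2. Its log2 fold changes were 0.93 ± 0.21 (limma adjusted p = 0.00255) and 0.82 ± 0.21 (adjusted p = 0.00819), and 49.2% of its 150-base words are shared with other genes.

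ZNF382, a KRAB repressor known to be silenced in several carcinomas, had 604, 515 and 416 in siCtrl, 839, 965 and 1107 in siQKI and 969, 818 and 889 in siRBFOX2. Its log2 fold change was 0.93 ± 0.16 in siQKI (limma adjusted p = 0.000273) and 0.81 ± 0.16 in siRBFOX2 (adjusted p = 0.00121). ZNF382 was at 0, 17.2 and 40.4 in HPAF-II. ZNF233 had 647, 580 and 597 in siCtrl and 1196, 1181 and 1012 in siQKI. The change was 0.89 ± 0.12 in siQKI (limma adjusted p = 4.94e-05) and 0.75 ± 0.12 in siRBFOX2 (adjusted p = 0.000348). ZNF491, a member listed at 0 in HPAF-II, had 230, 132 and 185 in siCtrl and 352, 391 and 334 in siRBFOX2, the largest of the named rises in that knockdown (1.01 ± 0.25, limma adjusted p = 0.00652). It overlaps 2 other listed genes, as ZNF233 does.

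Of the remaining named rises in siQKI, ZNF554 rose by 0.91 ± 0.27, ZNF846 by 0.71 ± 0.18 and ZNF792 by 0.68 ± 0.18 (limma adjusted p of 0.0152, 0.00684 and 0.0088). ZNF554 did not pass without siCtrl replicate 1 (adjusted p = 0.0688) or siQKI replicate 1 (adjusted p = 0.0787). In siRBFOX2 the corresponding values of ZNF554, ZNF846 and ZNF792 were 0.75, 0.25 and 0.14, none past the threshold. The remaining named rises in siRBFOX2 were ZNF321P (0.56 ± 0.15), ZNF234 (0.55 ± 0.10) and ZNF468 (0.51 ± 0.04). ZNF468 was the most precise of them, with 9765, 9973 and 9602 in siCtrl, 10437, 10646 and 10629 in siQKI and 13896, 14155 and 13713 in siRBFOX2 (limma adjusted p = 7.07e-07 in siRBFOX2 and 0.0569 in siQKI).

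Falls were smaller. ZNF805 had 5494, 4719 and 5406 in siCtrl, 3626, 4100 and 4045 in siQKI and 2900, 3296 and 4122 in siRBFOX2. The log2 fold change was -0.41 ± 0.11 in siQKI (limma adjusted p = 0.00754) and -0.61 ± 0.11 in siRBFOX2 (adjusted p = 0.000537). ZNF576 had 5026, 4794 and 4523 in siCtrl and 4421, 3354 and 3460 in siQKI, a change of -0.36 ± 0.09 (limma adjusted p = 0.00522), and one of -0.32 ± 0.09 in siRBFOX2 (adjusted p = 0.0134). The other named falls in siQKI ranged from -0.32 (ZNF528) to -0.24 (ZNF551), through ZNF826P, ZNF628, ZNF865 and ZNF559. With upper-quartile scaling the falls of ZNF528, ZNF559, ZNF826P, ZNF865 and ZNF551 in siQKI had adjusted p of 0.0555 to 0.115. In siRBFOX2 the other named falls ranged from -0.35 (ZNF580) to -0.26 (ZNF524), through ZNF180, ZNF507, ZNF850 and ZNF473.

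**Figure D5:**
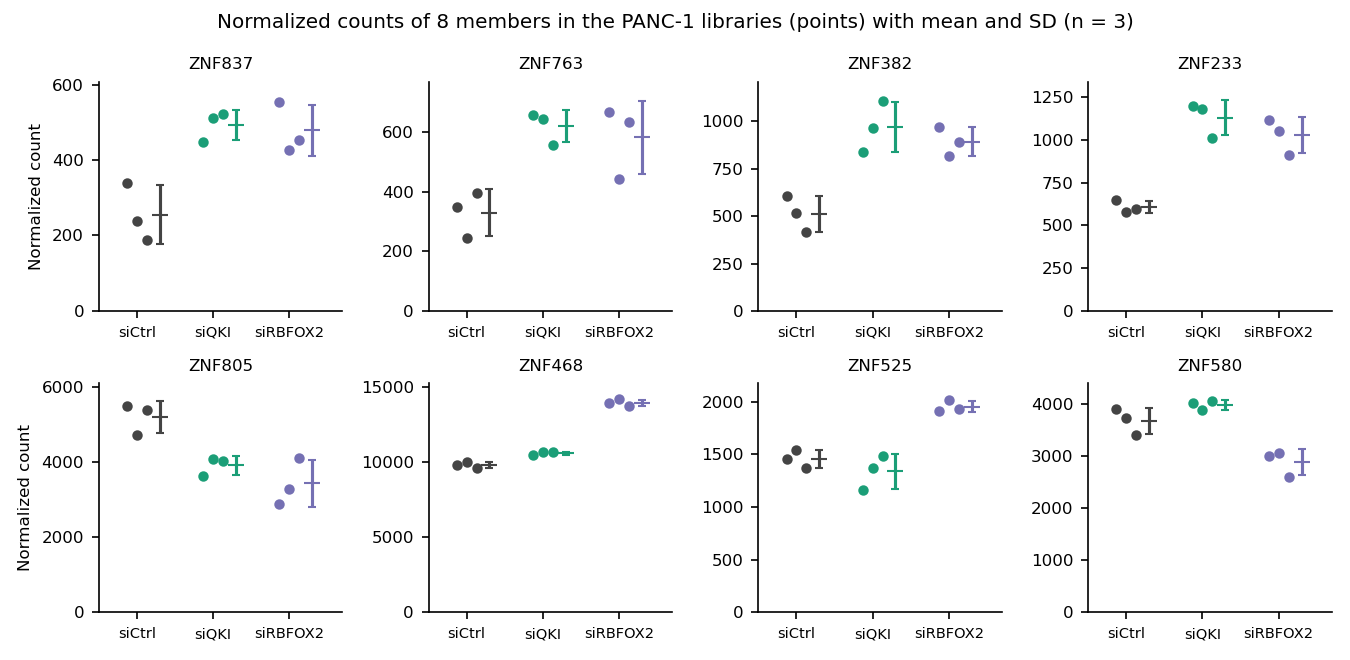
Normalized counts of 8 members in each siCtrl, siQKI and siRBFOX2 library of PANC-1 cells (points), with the mean and SD of each group (n = 3) beside them and the axis starting at 0. ZNF837, ZNF763, ZNF382 and ZNF233 are higher in both knockdowns, ZNF805 is lower in both, and ZNF468, ZNF525 and ZNF580 lie apart in siRBFOX2.

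Among the 9 clusters of at least 5 members, calls went both ways in 6 and only higher in 3 in siQKI. In siRBFOX2 they went both ways in 4 and only higher in 4, and 1 cluster had no call. For the counts below, 22.4% of all members tested were higher and 6.90% lower in siQKI, against 14.9% and 18.1% of all genes. In siRBFOX2 the shares were 24.1% and 6.03% of the members, against 12.0% and 14.5% of all genes. Whether a cluster or class departs from the share of all members was not tested. In siQKI the ZNF653 to ZNF791 cluster had 9 members higher and 0 lower of 26 tested (median log2 fold change 0.20), and the ZNF807P to ZNF792 cluster 4 higher and 0 lower of 6 (median 0.43). The ZNF175 to ZNF331 cluster had 10 higher and 1 lower of 42 in siQKI and 14 higher and 0 lower of 42 in siRBFOX2. The ZNF628 to ZNF446 cluster had 4 higher and 7 lower of 50 in siQKI and 6 higher and 8 lower of 50 in siRBFOX2. The member with the largest change of a cluster past the threshold was ZNF93 in the ZNF101 to ZNF254 cluster in both knockdowns (0.52 ± 0.14 in siQKI and 0.45 ± 0.14 in siRBFOX2). It was ZNF432 in the ZNF175 to ZNF331 cluster in siQKI (0.43 ± 0.12), ZNF30 in the ZNF807P to ZNF792 cluster in siRBFOX2 (0.49 ± 0.09) and ZNF561 in the ZNF557 to ZNF846 cluster in siRBFOX2 (0.27 ± 0.07). The members with a KRAB A-box pattern gave 42 higher and 10 lower of 188 in siQKI and 45 higher and 4 lower in siRBFOX2, and the coding members without it gave 9 higher and 5 lower of 37 and 8 higher and 10 lower.

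The rule named the 3 closest pairs of neighbours past the threshold in opposite directions, all in siQKI. ZNF345 was higher (0.38 ± 0.12) and ZNF829, which overlaps it on the other strand, lower (-0.29 ± 0.09), so both depend on how overlapping reads were assigned. ZNF428 was higher (0.24 ± 0.06) beside ZNF576. ZNF737 was higher (0.28 ± 0.10) beside the pseudogene ZNF826P (-0.30 ± 0.11).

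The test of siQKI against siRBFOX2 asks whether the effects of the knockdowns differ. It called 35 of the 232 members (15.1%), and 21.5% of all genes tested. Of the 35, 16 were higher in siQKI (6.90%, against 9.93% of all genes) and 19 lower (8.19%, against 11.6%). By limma, 0 of the 35 reached 1.5-fold, while 4.33% of all genes were called at that size (2.09% higher and 2.24% lower), and 53 members had an unadjusted p under 0.05 at any size. With upper-quartile scaling, which moved the median of all genes from 0.005 to 0.036, the calls were 20 higher and 15 lower. Without the mean-variance trend there were 22, where 15% of all genes passed. ZNF580 was higher in siQKI than in siRBFOX2 by 0.47, with 4003, 3869 and 4056 against 2996, 3062 and 2593 (limma adjusted p = 0.00042). ZNF439, ZNF550 and ZNF784 were higher in siQKI by 0.35, 0.34 and 0.33. ZNF525 was lower in siQKI by -0.55, with 1160, 1367 and 1487 against 1913, 2012 and 1932 (limma adjusted p = 0.00101). ZNF222, ZNF528 and ZNF616 were lower in siQKI, with log2 differences of -0.53, -0.46 and -0.44.

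The members listed with a splicing event in the study's supplementary tables were described by their total level alone. ZNF585A and ZNF615, listed for QKI, changed by 0.32 ± 0.07 (limma adjusted p = 0.00228) and 0.25 ± 0.11 (adjusted p = 0.113) in siQKI. ZNF581, listed for RBFOX2, had a change of -0.03 ± 0.07 in siRBFOX2 (adjusted p = 0.766). ZNF875, ZNF331, ZNF580, ZNF83 and TPM3P9 // ZNF761, listed between HPAF-II and PANC-1, had log2 differences of total level between these lines of -0.54, -1.40, -1.42, -1.45 and -0.84. Splicing itself was not analysed here.

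The KRAB repressor machinery gave 12 of 22 genes past the threshold in each knockdown, with 4 higher and 8 lower in siQKI and 2 higher and 10 lower in siRBFOX2. Of all genes tested, 33.0% passed in siQKI (14.9% higher, 18.1% lower) and 26.5% in siRBFOX2 (12.0% higher, 14.5% lower). TRIM28 did not differ beyond the spread in siQKI (0.00 ± 0.05, limma adjusted p = 0.966) and fell in siRBFOX2 (-0.17 ± 0.05, adjusted p = 0.018). UHRF1, which brings DNMT1 to newly copied DNA, changed by -0.33 ± 0.04 in siQKI (adjusted p = 1.01e-05) and by -0.27 ± 0.04 in siRBFOX2 (adjusted p = 8.57e-05). MPHOSPH8 rose in both (0.44 ± 0.08, adjusted p = 0.000612, and 0.56 ± 0.08, adjusted p = 0.000117).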

How the data were processed

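PANC-1 and HPAF-II libraries were sequenced from polyA RNA as 150-base paired ends. Per the labels, the processing notes of the authors name STAR 2.7.5a, SAMtools, Picard, FastQC, DESeq2 and hg38, whereas the study's resource list gives another STAR release and featureCounts; which made these tables is not given in the sources used here. Each signal value deposited by the authors is a count for a FAST DB gene divided by a DESeq2 size factor, estimated for each table apart. To 3 digits, 100% of values of a library were whole multiples of 1 step (within 0.01), but 82.1% to 84.8% of values of 1 to 30 steps were multiples of 3, which leaves the number of fragments behind a step open. Libraries summed to between 226697015 and 376192091 steps, and precision was taken from the replicates. Strand use is not given in the sources used here.

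For PANC-1, limma 3.58.1 (R 4.3.3) was fitted once to all 9 libraries with a mean-variance trend, on log2(value + 1) of the 22544 genes whose mean reached 10, with Benjamini-Hochberg adjustment over all of them and a threshold of 0.05. Fold changes on this scale understate low genes. The script was tested on simulated data. The 21 members below the minimum were not tested. Line levels were rescaled to a total of 1000000, with a pseudocount of 0.01. Coordinates are those of the deposited tables, and features came from GENCODE release 29 (251 members matched) and RefSeq promoters. Finger and KRAB A-box patterns were searched in translated GENCODE coding sequences in place of the RefSeq proteins planned for this. Alternatives covered pseudocounts, filters, scaling, a replicate block, the fitted groups, the trend, left-out libraries and overlapping genes. Members, gene lists and rules were chosen with earlier results of these data known. Members were named by rule. The 8 largest rises and falls per knockdown came from called members that averaged 50 or more and did not overlap with siCtrl. Between the knockdowns 4 each way were named by the same rule. Between the lines 8 each way were named, from members that averaged 50 or more in the higher line and whose libraries did not overlap. The largest per cluster, listed splicing events and the 3 closest opposite neighbours were named too. Others were named after their values were seen. Summaries used Python 3.11.15, pandas 2.3.3 and numpy 2.4.6, and the figures used matplotlib 3.10.9.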

Additional observations from a re-analysis of the deposited data

Results flagged for a closer look

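The effects of siQKI and siRBFOX2 differed by limma's test of the difference itself in 35 of 232 members (15.1%), a share below the 21.5% of all genes tested. By the rule for named members, siQKI lay above siRBFOX2 in ZNF580 (a log2 difference of 0.47), ZNF439 (0.35), ZNF550 (0.34) and ZNF784 (0.33), and below it in ZNF525 (-0.55), ZNF222 (-0.53), ZNF528 (-0.46) and ZNF616 (-0.44). In ZNF528 the sign of the change against siCtrl differed between the knockdowns (-0.32 in siQKI, past the threshold, and 0.15 in siRBFOX2, not past it). That siQKI call is weak, with adjusted p of 0.0516 to 0.204 under 8 alternatives, among them no filter on low values, the replicate block (0.0602), no mean-variance trend and leaving out siCtrl replicate 1 (-0.21, adjusted p = 0.204), siCtrl replicate 2, siQKI replicate 2 or siQKI replicate 3. ZNF439 did not pass without siQKI replicate 1 or 3 or without any of the siRBFOX2 libraries, with adjusted p of 0.0631 to 0.136. Groups of 3 libraries are too small for a test of single outlying libraries.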

How the results depend on the processing

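In the PANC-1 tests, the counts of members past the threshold were 68 (siQKI), 70 (siRBFOX2) and 35 (difference). Without the mean-variance trend the counts were 44, 46 and 22. The shares of all genes fell as well, from 33.0%, 26.5% and 21.5% to 26.4%, 18.9% and 15%. Among members that overlap no other listed gene the counts were 32, 39 and 18, with 128 members tested. Without 1 library at a time the counts ranged from 44 to 71, from 55 to 74 and from 24 to 35. The shares of all genes there were 27.6% to 34.1%, 21.6% to 26.5% and 17.4% to 21.2%. The lowest siQKI count was that without siQKI replicate 3. Other pseudocounts, filters, scalings and sample sets left the counts within 1.5 times. Replicate numbers do not pair the libraries, since deviations of same-numbered libraries correlated with r of -0.0325 to 0.0235, and the fit with a replicate block gave 69, 73 and 36 calls. Of the 57 named changes past the threshold, 31 passed under every alternative run and none reversed; 21 were lost without the trend.

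Between the lines, 134 of the 232 members compared were at least 2-fold apart (4.31% higher and 53.4% lower in HPAF-II). Of all 24673 genes compared, 13133 were (26.1% higher and 27.1% lower), so the members stand out by direction. Their count was 115 to 149 under the other scalings, pseudocounts and filters, and 135 to 144 without 1 library. Among members that overlap no other listed gene, 69 were at least 2-fold apart. Of the 60 members low in HPAF-II, an alternative rule chosen after seeing the data, 0 in every HPAF-II library, kept 39; without overlapping genes there were 25; without 1 library there were 55 to 63. The range of the medians of clusters of at least 5 members was 0.49 in siQKI and 0.22 in siRBFOX2 (log2), and 0.08 and 0.10 with a gap of 2 Mb; with a gap of 0.5 Mb the latter was 0.36. The causes were not tested. The planned count-model alternatives were not run, since whole reads could not be recovered from the deposited values.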
